A study of Mus musculus with 14 samples.

Results

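Ly6d, Tff3, Cib3, Mucl2 and Folh1 are 5 of the 19938 mouse genes that the liver arrays measured with a probe naming a single gene. They were picked because their signals were among the largest rises in knockout liver over wild-type liver. The values that chose them are therefore given as a description, with no test against wild type, and the comparison of the knockouts with each other is the only one of group means that was tested for them. It uses the same knockout arrays, so it is not free of the choice for a gene whose rise differed between the knockouts. Each of the 5 genes has exactly 1 such probe on the array.

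The livers came from female mice aged 14 months, were free of tumour, and fell into 3 groups. Mdr2-KO/IL6-KO mice, which lack both Mdr2 and interleukin 6, gave 6 arrays, Mdr2-KO mice gave 5, and wild-type C57BL/6 mice gave 3. The labels give a strain for wild type and none for the knockouts. Strain and genotype therefore cannot be told apart against wild type, nor between the knockouts. Total RNA was labelled with biotin and hybridised to Affymetrix arrays, and values are log2 signals, on which a step of 1 is a doubling.

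Mdr2, now Abcb4, moves phosphatidylcholine across the canalicular membrane of the hepatocyte into bile. Without it the bile salts injure the bile ducts, and the mice develop inflammation, a ductular reaction, fibrosis and later liver tumours. The 5 genes have no common pathway in the textbooks. Ly6d and Folh1 encode cell surface proteins. Ly6d is a small lipid-anchored protein of the Ly6/uPAR family, best known as a mark of lymphoid progenitors that turn towards the B cell lineage. Folh1, called PSMA in humans, is a membrane peptidase that removes glutamate from folates and from a neuropeptide of the brain. Tff3 and Mucl2 encode secreted products of epithelia. Tff3 is a trefoil peptide released together with mucins, by goblet cells above all, and helps to close wounds of the mucosa, while Mucl2 is a mucin-like protein. Cib3 encodes a calcium-binding protein of the CIB family, whose members bind integrin tails and, in hair cells of the inner ear, the TMC channels.

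Ly6d and Mucl2 lie on chromosome 15, Tff3 on chromosome 17, Cib3 on chromosome 8 and Folh1 on chromosome 7 of GRCm38.p6. Promoter windows of RefSeq (GRCm38.p6), from 250 bases before to 50 bases after the annotated start, were at hand for 3 of the 5 genes. They are printed because these 3 genes share a rise in knockout liver and are on different chromosomes. The windows can thus be read beside each other. The annotated starts were taken as given and were not checked. The Cib3 window may hold transcribed sequence before its annotated start, so its composition and motif search may not describe a promoter. All 3 lie on the minus strand, at chr8:72212788-72213087 for Cib3, chr7:86775815-86776114 for Folh1 and chr15:103899263-103899562 for Mucl2, and are written 5′ to 3′ in the direction of transcription. Capitals mark the only match to any of the motifs searched.
Cib3: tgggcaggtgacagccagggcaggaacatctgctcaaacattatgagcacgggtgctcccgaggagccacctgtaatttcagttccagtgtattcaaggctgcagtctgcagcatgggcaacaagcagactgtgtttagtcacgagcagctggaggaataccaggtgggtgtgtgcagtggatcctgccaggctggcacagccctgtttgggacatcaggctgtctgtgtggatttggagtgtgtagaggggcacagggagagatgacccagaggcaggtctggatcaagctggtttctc
Folh1: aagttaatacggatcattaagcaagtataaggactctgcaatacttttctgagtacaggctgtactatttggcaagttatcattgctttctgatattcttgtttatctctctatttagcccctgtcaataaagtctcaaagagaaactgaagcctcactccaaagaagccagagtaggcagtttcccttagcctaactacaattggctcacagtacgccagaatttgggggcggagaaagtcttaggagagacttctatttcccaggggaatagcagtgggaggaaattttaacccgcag
Mucl2: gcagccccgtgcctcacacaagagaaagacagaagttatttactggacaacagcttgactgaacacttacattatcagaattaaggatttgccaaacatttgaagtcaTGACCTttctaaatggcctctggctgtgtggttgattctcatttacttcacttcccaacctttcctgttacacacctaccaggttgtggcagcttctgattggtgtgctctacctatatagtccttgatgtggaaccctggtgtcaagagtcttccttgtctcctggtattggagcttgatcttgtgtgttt

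The 3 windows differ in composition. Cib3 has 55.67% G and C with 3 CG dinucleotides, Folh1 has 42.0% with 4 and Mucl2 has 44.0% with 1, beside medians of 52.67% and 7 over 32851 promoter windows. All 3 therefore hold fewer CG dinucleotides than the median window. The motifs were chosen with the windows already at hand and were searched on both strands. The hexamer of nuclear receptors, AGGTCA, was found in Mucl2 as TGACCT, 142 bases before the start, and occurs in 16.3% of all windows. The other motifs had no match in the 3 windows, and their shares among all windows were 8.3% for TTCNNNGAA (the palindrome of STAT factors), 7.81% for TGANTCA (AP-1), 13.6% for TATAAA (the TATA box), 12.4% for TGACNNNGC (the core of the antioxidant response element), 14.7% for GGAATG (TEAD factors) and 0.00913% for the palindrome of HNF1 factors. No motif was shared by the windows.

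A few arrays stood apart from their groups in ways that touch these genes. Mdr2-KO array 1 carried high signals of salivary and lacrimal gland genes, described with Mucl2. Mdr2-KO/IL6-KO array 2 and Mdr2-KO array 3 had mean signals of 7.78 and 8.63 over 9 neutrophil markers, where the other 12 arrays lay between 5.72 and 6.13. Abcb4 signal was between 8.77 and 9.24 in Mdr2-KO/IL6-KO, between 8.73 and 9.23 in Mdr2-KO and between 10.33 and 10.39 in wild type, lower in every knockout array. Il6 signal was between 3.13 and 4.00 in Mdr2-KO/IL6-KO, between 2.91 and 3.25 in Mdr2-KO and between 3.13 and 3.32 in wild type, and all of these lie under the background of the array, so the loss of Il6 could not be checked. Background is taken here as 5.49, which 95% of the 1015 olfactory receptor genes on the array do not reach. The mean over 13 hepatocyte markers was between 12.11 and 12.25 in Mdr2-KO/IL6-KO, between 12.18 and 12.33 in Mdr2-KO and between 12.20 and 12.22 in wild type.

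Ly6d was far brighter in both knockouts. Its signal had a lowest, median and highest value of 9.49, 10.30 and 10.99 in the 6 Mdr2-KO/IL6-KO arrays. The 5 Mdr2-KO arrays read 9.86, 10.55, 10.45, 10.70 and 9.64, and the 3 wild-type arrays 7.41, 7.58 and 6.37. No knockout array came near a wild-type array, and the smallest gap was 1.91 for Mdr2-KO/IL6-KO and 2.05 for Mdr2-KO. The group means were 10.22 ± 0.60 in Mdr2-KO/IL6-KO (SD, n = 6), 10.24 ± 0.47 in Mdr2-KO (n = 5) and 7.12 ± 0.65 in wild type (n = 3). The differences from wild type were 3.10 (8.59-fold) for Mdr2-KO/IL6-KO and 3.12 (8.68-fold) for Mdr2-KO, rank 4 among the rises of all 19938 genes in either comparison. All 3 wild-type arrays were above background, so Ly6d was also detected in liver without the mutation. As this is bulk tissue, a change in the number of cells that express a gene and a change in RNA per cell cannot be told apart for any of these genes.

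Folh1 was under the background in wild type and above it in every knockout array. In Mdr2-KO/IL6-KO the lowest, median and highest values were 6.35, 7.51 and 8.43. Mdr2-KO arrays read 7.78, 7.70, 7.23, 6.87 and 7.17, against 4.48, 4.36 and 4.66 in wild type. The arrays spread over 2.09 log2 units in Mdr2-KO/IL6-KO, 0.91 in Mdr2-KO and 0.30 in wild type. The mean signal was 7.39 ± 0.78 in Mdr2-KO/IL6-KO, 7.35 ± 0.38 in Mdr2-KO and 4.50 ± 0.15 in wild type (SD, n = 6, 5 and 3). The measured differences were 2.88 and 2.85, each rank 6. Because wild type gives only an upper limit, the fold was set against the background level, and Folh1 was at least 3.72-fold higher in Mdr2-KO/IL6-KO and at least 3.64-fold higher in Mdr2-KO than in wild type.

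Tff3 was also brighter in both knockouts. In Mdr2-KO/IL6-KO the lowest, median and highest values were 9.33, 9.94 and 10.70, and the Mdr2-KO arrays read 9.85, 10.13, 11.09, 9.03 and 9.25. The wild-type arrays read 6.71, 7.46 and 6.70, all above background. Every knockout array lay at least 1.57 above the highest wild-type array. Tff3 averaged 9.91 ± 0.53 in Mdr2-KO/IL6-KO, 9.87 ± 0.81 in Mdr2-KO and 6.96 ± 0.44 in wild type (SD, n = 6, 5 and 3), differences of 2.95 (7.75-fold) and 2.91 (7.54-fold), rank 5 in both. The highest Tff3 array of each knockout group, Mdr2-KO/IL6-KO array 2 at 10.70 and Mdr2-KO array 3 at 11.09, was also the array with the high neutrophil markers. None of the 9 neutrophil markers passed the limma test in any comparison, with 1 at an unadjusted p under 0.05 (higher in Mdr2-KO than in wild type), and their part in the Tff3 values was not tested. With single arrays left out, the smallest difference of Tff3 from wild type was 2.80 in Mdr2-KO/IL6-KO and 2.61 in Mdr2-KO.

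Cib3 had the largest rise by size of all 19938 genes in Mdr2-KO/IL6-KO with all arrays kept, and its rank there was between 1 and 3 with single arrays left out. Of the 5 genes it varied least within each knockout, but not within wild type. Its lowest, median and highest values in Mdr2-KO/IL6-KO were 8.88, 9.20 and 9.53. The Mdr2-KO arrays read 9.34, 9.08, 8.66, 8.81 and 9.33, and the wild-type arrays 5.31, 6.64 and 5.40. The knockout arrays formed a narrow band of 8.66 to 9.53, while only wild-type array 2 exceeded the background. The means were 9.18 ± 0.25 in Mdr2-KO/IL6-KO, 9.045 ± 0.31 in Mdr2-KO and 5.78 ± 0.75 in wild type (SD, n = 6, 5 and 3). Cib3 was 3.40 higher in Mdr2-KO/IL6-KO (10.5-fold, rank 1) and 3.26 higher in Mdr2-KO (9.60-fold, rank 2), and these folds are not exact because 2 of the 3 wild-type arrays were at background. Without wild-type array 2 the differences were 3.83 and 3.69.

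**Figure D1:**
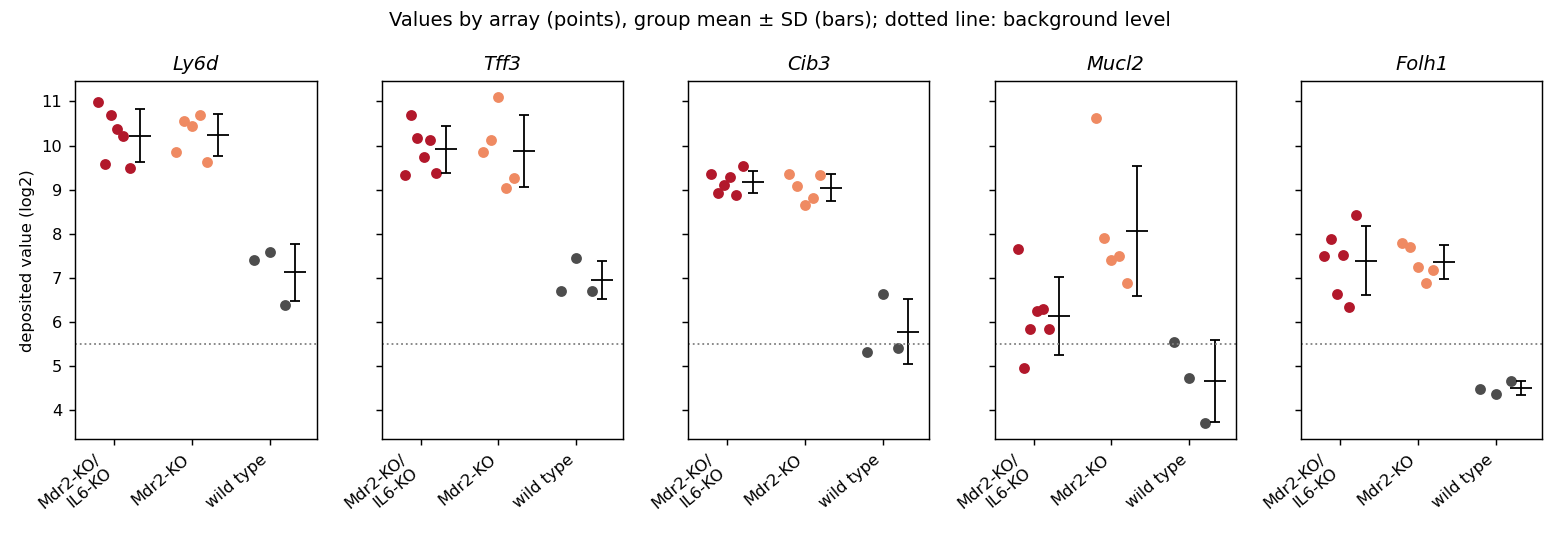
Log2 signal of Ly6d, Tff3, Cib3, Mucl2 and Folh1 by array, in Mdr2-KO/IL6-KO (6 points), Mdr2-KO (5) and wild type (3), with bars for the group mean ± SD and a dotted line at the background level of 5.49. Knockout points of Ly6d, Tff3, Cib3 and Folh1 clear all wild-type points, whereas Mucl2 in Mdr2-KO/IL6-KO, at 4.95 to 7.66, overlaps wild type, at 3.70 to 5.55.

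Mucl2 had another pattern, with the highest signal in Mdr2-KO and a middle one in Mdr2-KO/IL6-KO. The Mdr2-KO arrays read 10.63, 7.89, 7.40, 7.50 and 6.88, whereas the lowest, median and highest values in Mdr2-KO/IL6-KO were 4.95, 6.05 and 7.66. The wild-type arrays read 5.55, 4.72 and 3.70. All 5 Mdr2-KO arrays were above wild type, but Mdr2-KO/IL6-KO array 2 at 4.95 lay below wild-type array 1. Means were 6.14 ± 0.89 in Mdr2-KO/IL6-KO, 8.06 ± 1.48 in Mdr2-KO and 4.66 ± 0.92 in wild type (SD, n = 6, 5 and 3). Mucl2 was thus 1.48 higher in Mdr2-KO/IL6-KO than in wild type (2.79-fold), rank 62, and 3.40 higher in Mdr2-KO (10.6-fold), rank 1 with all arrays kept. With single arrays left out that rank was between 1 and 5, and it was 5 without Mdr2-KO array 1. Only 1 of the 3 wild-type arrays was above background, so neither fold is exact.

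The arrays of knockout and wild-type liver did not overlap for 4 of 5 genes in Mdr2-KO/IL6-KO, where 8.57% of all genes lay wholly above wild type. The count was 5 of 5 in Mdr2-KO, where 10.3% of all genes did, and the genes were chosen on these contrasts, so nothing is read from the counts. Genes that were not chosen stood among and just below the ranks of Ly6d, Tff3, Cib3 and Folh1. In Mdr2-KO, Folh1 at 2.85 was followed by Cyp4a12b at 2.81, and Cyp4a12a stood among the chosen genes at 3.22. In Mdr2-KO/IL6-KO, Cyp4a12a at 3.38 and Cyp4a12b at 3.29 stood between Cib3 at 3.40 and Ly6d at 3.10. There Folh1 at 2.88 was followed by Rragd at 2.74. Cyp4a12a and Cyp4a12b are cytochrome P450 genes of fatty acid hydroxylation, known as male-biased in mouse liver, and are not among the 5.

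**Figure D2:**
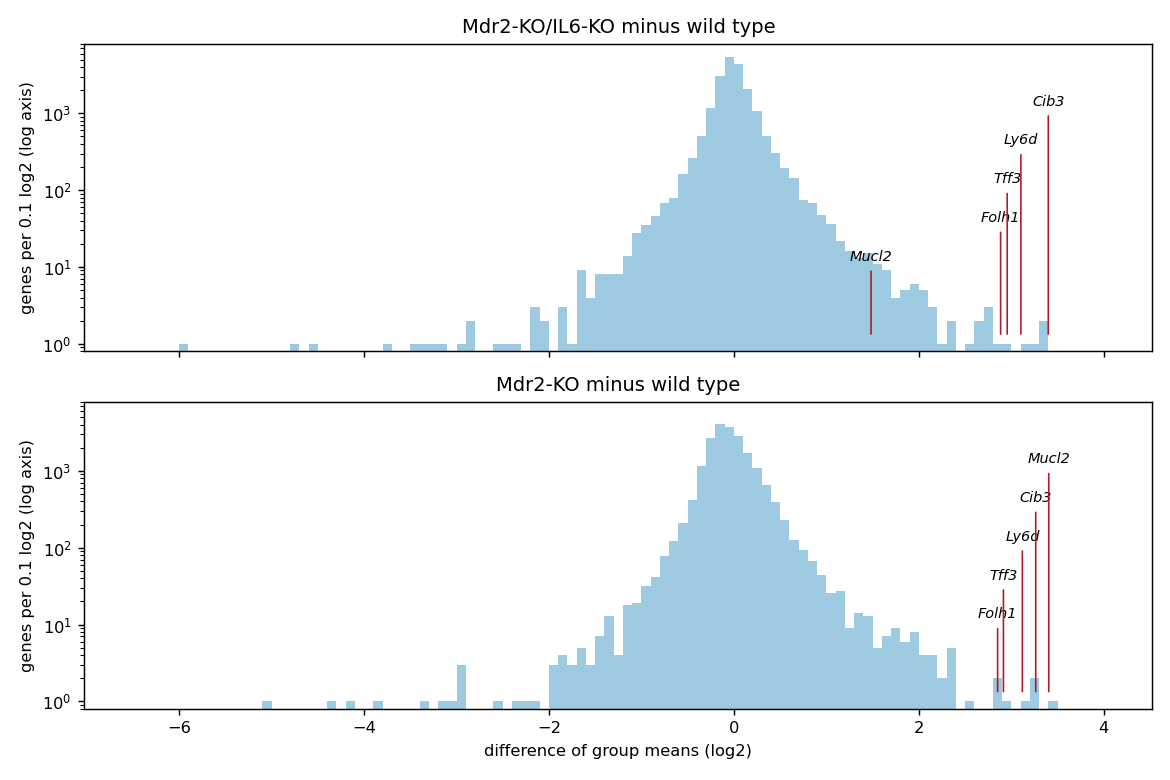
Number of genes (log axis) by difference from the wild-type mean in log2 units, for Mdr2-KO/IL6-KO in the upper panel and Mdr2-KO in the lower panel, over 19938 genes, with labelled lines at the 5 genes. Ly6d, Tff3, Cib3 and Folh1 sit beyond 2.8 at the far right of both panels, while Mucl2 is at 1.48 in the upper panel and at 3.40 in the lower one.

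Setting Mdr2-KO/IL6-KO against Mdr2-KO compares liver without and with interleukin 6 where Mdr2 is already lacking. The labels give no strain for either knockout, so a strain difference cannot be told apart from the loss of interleukin 6. The comparison was tested with limma over all 19938 genes at a Benjamini-Hochberg adjusted p of 0.05, where 8.76% of genes passed. None of the 5 genes passed, and 1 of them, Mucl2, had an unadjusted p under 0.05. The labels do not say that the arrays are separate mice, so p-values measure the spread between arrays.

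Ly6d, Tff3, Cib3 and Folh1 had nearly the same mean in both knockouts. Mdr2-KO/IL6-KO minus Mdr2-KO was -0.02 for Ly6d (95% interval -0.63 to 0.60, limma adjusted p = 0.975). It was 0.04 for Tff3 (-0.65 to 0.73, limma adjusted p = 0.946) and 0.03 for Folh1 (-0.60 to 0.67, limma adjusted p = 0.953). For Cib3 it was 0.14 (-0.31 to 0.58, limma adjusted p = 0.694). Each interval holds 0, so no direction can be given, and a difference anywhere inside these bounds is not excluded by these arrays. Leaving out single arrays turned the sign for Ly6d, Tff3 and Folh1, all of which are close to 0.

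Mucl2 was 1.92 lower in Mdr2-KO/IL6-KO than in Mdr2-KO (difference -1.92, SE 0.59, 95% interval -3.17 to -0.67). Its unadjusted p was 0.00492 in limma, and the limma adjusted p of 0.0531 missed the threshold. In 5 of 6 Mdr2-KO/IL6-KO arrays the Mucl2 signal was below all Mdr2-KO arrays, and the exception was array 1 at 7.66. By size it was the third-largest decrease of the 19938 genes, and the rank was 11 without Mdr2-KO array 1. The interval excludes 0 for Mucl2 taken singly, while the adjustment over all genes does not call it. Without Mdr2-KO array 1 the difference was -1.28 (limma adjusted p = 0.0993). Over the 21 alternatives tried the limma adjusted p of Mucl2 ran between 0.0325 and 0.0993.

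Mdr2-KO array 1, the array with the highest Mucl2 signal, was also the highest of all 14 arrays for a set of genes of salivary and lacrimal secretion. On that array 15 genes read more than 1 log2 unit above every other array. Such genes numbered 31 on Mdr2-KO array 3, 10 on Mdr2-KO/IL6-KO array 5 and at most 8 on any of the rest. Among the 15 on Mdr2-KO array 1, Mucl2 had the seventh-largest gap, with 10.63 beside a highest value of 7.89 elsewhere. Ahead of it were Bpifa2, a salivary protein of the parotid gland, at 8.90 beside at most 5.19, and the secretoglobins Scgb2b27 at 8.29 beside 4.69 and Scgb1b27 at 10.70 beside 7.39. Also ahead were Prol1 at 8.27 beside 5.20, Pip at 7.42 beside 4.45, and Car6, the secreted carbonic anhydrase of saliva, at 7.81 beside 5.05. Smr3a at 6.14 and Dcpp1 at 6.48, both of salivary glands, and 3 kallikreins of the Klk1b cluster were among the rest. Apart from Mucl2, all of these genes were picked for their value on this array. Bpifa2, Prol1, Smr3a and Dcpp1 are also 4 of the 11 measured genes in the list of salivary and mammary markers, and the other 7 of the list (Amy1, Aqp5, Dcpp2, Dcpp3, Csn2, Csn3 and Wap) did not stand out there, with only Csn3, by 0.29, above every other array.

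The mean over the 11 measured salivary and mammary markers lay between 5.21 and 5.43 in Mdr2-KO/IL6-KO, and between 5.25 and 5.38 in wild type. In Mdr2-KO it was 6.39 on array 1 and between 5.31 and 5.46 on the other 4 arrays. Over the 7 markers other than Bpifa2, Prol1, Smr3a and Dcpp1 the mean on Mdr2-KO array 1 was 5.79, beside at most 5.82 in wild type. Of these markers 5 of 11 were under background in every group, and between the knockouts none of 11 passed the limma test, with 1 higher and 2 lower at an unadjusted p under 0.05. Mdr2-KO/IL6-KO array 1, the highest of its group for Mucl2 at 7.66, was also the highest of its group for 6 of the 8 gland genes, namely Scgb1b27 at 7.39, Scgb2b27 at 4.69, Prol1 at 4.97, Bpifa2 at 5.19, Pip at 4.45 and Car6 at 5.05. It was not the highest for Smr3a, at 4.62 beside 4.64 on array 3, or for Dcpp1, at 5.24 beside 5.36 on array 4. Of the 8 gland genes only Scgb1b27 was above the background of 5.49 on that array, so little can be read from the order of the others. With array 1 of both knockouts set aside, Mucl2 averaged 5.83 ± 0.54 in Mdr2-KO/IL6-KO (SD, n = 5) and 7.42 ± 0.42 in Mdr2-KO (n = 4), against 4.66 ± 0.92 in wild type (n = 3). Prol1 averaged 4.03 ± 0.22 and 4.68 ± 0.37 on the same arrays, against 4.03 ± 0.20 in wild type, and Scgb1b27 averaged 6.55 ± 0.13 and 6.82 ± 0.13, against 6.45 ± 0.07. Scgb1b27, above background, was thus also somewhat higher on Mdr2-KO arrays 2 to 5, by less than Mucl2. The Prol1 averages all lie under the background of 5.49, so its difference is uncertain. Car6, also under background, averaged 4.69 ± 0.08 and 4.68 ± 0.04, against 4.66 ± 0.12 in wild type. Without Mdr2-KO array 1, Mucl2 was 2.76 higher in Mdr2-KO than in wild type. The part of gland RNA in the Mucl2 values was not tested.

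**Figure D3:**
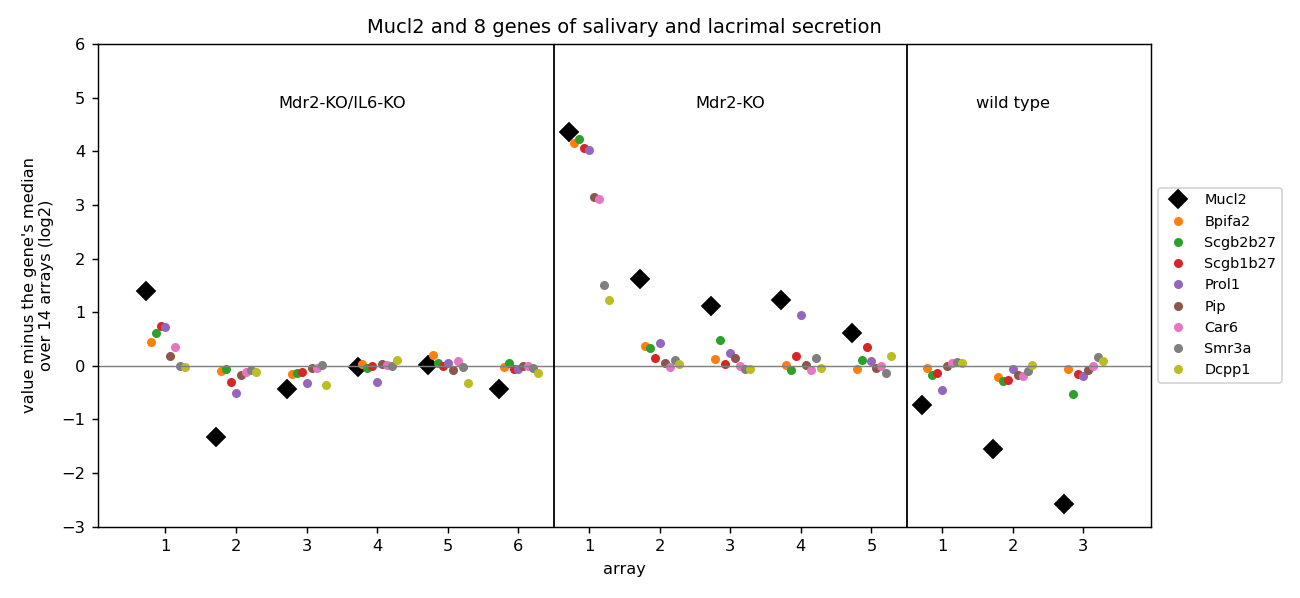
Log2 signal of Mucl2 (diamonds) and of 8 salivary and lacrimal secretion genes (circles) on each of the 14 arrays, as the difference from each gene's median over all arrays, with Mdr2-KO/IL6-KO at the left, Mdr2-KO in the middle and wild type at the right. All 9 genes are highest on Mdr2-KO array 1. On Mdr2-KO arrays 2 to 5 Mucl2 alone remains above 0.6 on all 4 arrays, and Prol1 reaches that level on array 4, with a signal under background.

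The 5 genes were among the more variable genes within groups. The pooled SD within groups was 1.15 for Mucl2, rank 15 of all genes, 0.63 for Tff3, 0.58 for Folh1, 0.56 for Ly6d and 0.41 for Cib3, beside a median of 0.13 over all genes. Arrays high for one of the genes were not in general high for the others. Mdr2-KO/IL6-KO array 1, highest in its group for Ly6d and Mucl2, was lowest for Tff3, and array 6, highest for Cib3 and Folh1, was lowest for Ly6d. Wild-type array 2 was the highest wild-type array for Ly6d, Tff3 and Cib3. It was also the wild-type array with the lowest mean over 16 female-biased liver genes, at 8.63 beside 9.51 and 9.27. Of the wild-type arrays it had the highest mean over T, B and plasma cell markers, at 7.47 beside 6.83 and 6.80. Its means were also the highest for markers of bile duct cells (6.94), macrophages (7.83) and stellate cells (7.61). They were the lowest for neutrophil markers (5.81) and for the gut, pancreatic and salivary lists. The part of these genes in its values was not tested.

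Pairs of the genes were compared within Mdr2-KO/IL6-KO, the only group with 6 arrays. None of the 10 pairs passed after adjustment, and 1 had an unadjusted exact p under 0.05 for Pearson's r. The strongest was Tff3 with Cib3, at Pearson r = -0.88 (exact permutation p = 0.0306, 2-sided, adjusted over the 10 pairs 0.306) and Spearman rho = -0.77 (exact permutation p = 0.103, adjusted 0.514). Without the 2 arrays farthest from the median of Tff3, r was -0.93. Ly6d with Mucl2 followed, at r = 0.77 (exact permutation p = 0.0611, adjusted 0.306) and rho = 0.49 (exact permutation p = 0.356, adjusted 0.699), with r = 0.66 without the 2 arrays farthest from the median of Ly6d. Within this group the genes were therefore not shown to vary together.

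**Figure D4:**
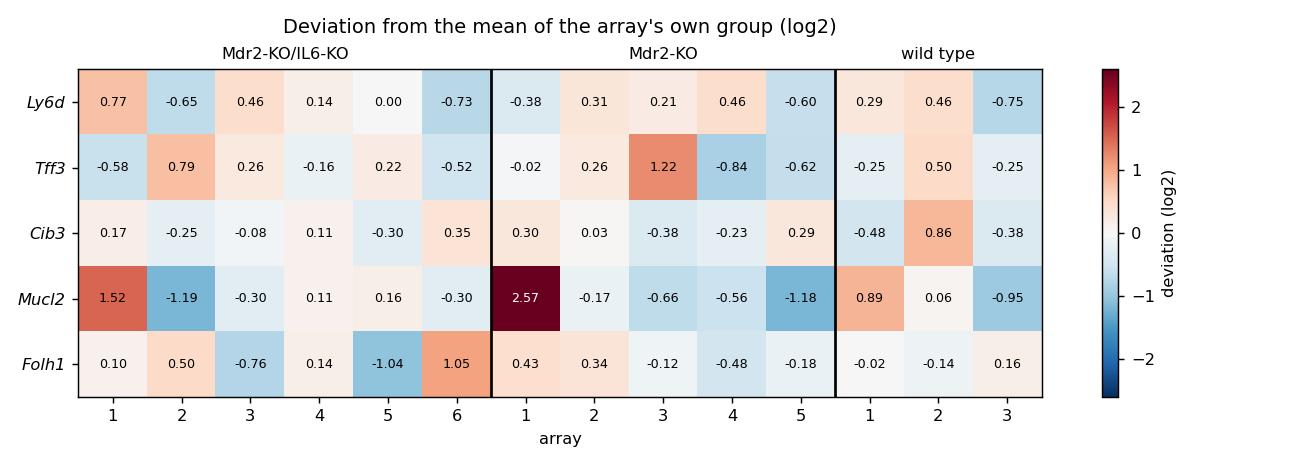
Deviation of each array from the mean of its own group in log2 units, for the 5 genes (rows) on 14 arrays (columns), with Mdr2-KO/IL6-KO at the left, Mdr2-KO in the middle and wild type at the right. Mucl2 holds the largest deviations, 2.57 on Mdr2-KO array 1 and 1.52 on Mdr2-KO/IL6-KO array 1, and Tff3 deviates most on Mdr2-KO array 3, by 1.22.

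Likeness over all 14 arrays was measured as the root mean square difference in log2 units after each gene was centred on its own mean, so that 0 is an identical profile. It is mainly a likeness of the step between knockout and wild type, and is a description. Ly6d was nearest to Gipc2 (0.61), Cyp2c39 (0.61), Cib3 (0.62), Pls1 (0.65) and Rragd (0.67). Tff3 was nearest to Rragd (0.58), Gipc2 (0.59), Cyp2d9 (0.60), Pls1 (0.62) and Casp12 (0.64). For Cib3 the nearest were Elovl7 (0.47), Rragd (0.48), Defb1 (0.56), Folh1 (0.57) and Pls1 (0.57), and for Folh1 they were Rragd (0.48), Elovl7 (0.54), Pls1 (0.55), Cyp2c39 (0.56) and Cib3 (0.57). Rragd, a GTPase of the amino acid sensing branch of mTORC1, and Pls1, the actin bundler of microvilli, were near all 4 genes. Mucl2 had other neighbours, namely Prol1 (0.92), Scgb2b27 (0.95), Scgb1b27 (1.002), Bpifa2 (1.06) and Rnu3a (1.06), and of the chosen genes Ly6d came nearest at rank 56 (1.32).

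The families of the 5 genes passed the test about as often as all genes did. Of their 84 other measured genes, 11 were called in Mdr2-KO/IL6-KO (13.1%) and 18 in Mdr2-KO (21.4%), each against wild type, beside 12.3% and 21.0% of all genes. Against wild type, 2 of 33 other Ly6/uPAR genes rose and 1 fell in Mdr2-KO/IL6-KO, and 2 rose and 6 fell in Mdr2-KO, with median differences of -0.07 and -0.17 beside -0.02 and -0.07 over all genes. Among all genes 6.96% rose and 5.33% fell in Mdr2-KO/IL6-KO, and 8.89% rose and 12.1% fell in Mdr2-KO. The 6 falls became 0 without wild-type array 3 and 12 without wild-type array 2, and the other 3 counts ran between 0 and 2 with single arrays left out. Between the knockouts, where 5.04% of all genes rose and 3.72% fell in Mdr2-KO/IL6-KO, 3 Ly6/uPAR genes rose and none fell. None rose without Mdr2-KO array 1, 3 or 4, or without Mdr2-KO/IL6-KO array 4. Lynx1, a lipid-anchored modulator of nicotinic acetylcholine receptors that lies next to Ly6d, averaged 6.35 ± 0.18 in Mdr2-KO/IL6-KO and 6.43 ± 0.15 in Mdr2-KO, against 5.82 ± 0.07 in wild type. It rose by 0.53 (SE 0.11, limma adjusted p = 0.00388) and 0.61 (SE 0.11, limma adjusted p = 0.00166), and both calls held with any single array left out.

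Against wild type, none of 26 other trefoil and mucin secretion genes rose and 2 fell in Mdr2-KO/IL6-KO, and 1 rose and 2 fell in Mdr2-KO, with medians of -0.05 and -0.13. Leaving out single arrays gave between 1 and 2 falls in Mdr2-KO/IL6-KO, and none in Mdr2-KO without wild-type array 3. Tff1 and Tff2, the trefoil peptides beside Tff3 on chromosome 17, did not pass. Tff2 read 6.27 in Mdr2-KO/IL6-KO and 5.96 in Mdr2-KO, against 5.70 in wild type (limma adjusted p = 0.0902 and 0.399). C1galt1c1, the chaperone of the enzyme that builds core mucin glycans, rose by 0.49 in Mdr2-KO (6.88 ± 0.21 against 6.39 ± 0.11 in wild type, limma adjusted p = 0.0063). It was lower in Mdr2-KO/IL6-KO than in Mdr2-KO by 0.43 (difference -0.43, limma adjusted p = 0.0118), at 6.46 ± 0.13. Muc19, a gel-forming mucin of salivary glands, fell by 0.35 in Mdr2-KO/IL6-KO (limma adjusted p = 0.00905), at 5.38 beside 5.73 in wild type.

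Of the 7 measured genes of the CIB family and its TMC partners besides Cib3, 1 rose and none fell in Mdr2-KO/IL6-KO, and 1 rose and 1 fell in Mdr2-KO. The medians were -0.07 and -0.12. The gene that rose was Cib1, the widely expressed member of the family, at 8.81 ± 0.21 in Mdr2-KO/IL6-KO and 9.19 ± 0.08 in Mdr2-KO, against 8.38 ± 0.10 in wild type. Cib1 rose by 0.44 in Mdr2-KO/IL6-KO (limma adjusted p = 0.012) and by 0.81 in Mdr2-KO (limma adjusted p = 0.000179), and was lower in Mdr2-KO/IL6-KO than in Mdr2-KO (difference -0.38, limma adjusted p = 0.0195). The rise in Mdr2-KO/IL6-KO was lost without wild-type array 3 (limma adjusted p = 0.0676). The difference between the knockouts was lost without Mdr2-KO array 1 (0.0518) or array 3 (0.0516).

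Of 18 M28 peptidases and folate handling genes besides Folh1, 1 rose and 4 fell in Mdr2-KO/IL6-KO, and 2 rose and 3 fell in Mdr2-KO, with medians of -0.06 and -0.09. Naaladl2, a relative of Folh1, fell by 0.73 in Mdr2-KO/IL6-KO (limma adjusted p = 0.0117) and by 0.87 in Mdr2-KO (limma adjusted p = 0.00363), at 8.12 and 7.98 beside 8.85 in wild type. Qpct, which forms pyroglutamate at peptide ends, fell by 0.64 (limma adjusted p = 0.0175) and 0.71 (limma adjusted p = 0.00934), at 7.20 and 7.13 beside 7.84. The Mdr2-KO/IL6-KO calls were lost without wild-type array 2 for Naaladl2 (0.075) and without wild-type array 1 for Qpct (0.103), and without that array the 4 falls of the list numbered 1. The 2 rises in Mdr2-KO numbered 0 without wild-type array 3, and also without Mdr2-KO array 3, 4 or 5. Ermp1, a metallopeptidase of the endoplasmic reticulum, rose by 0.68 in Mdr2-KO/IL6-KO (9.61 ± 0.20 against 8.93 ± 0.34 in wild type, limma adjusted p = 0.00409).

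The genes that flank the 5 genes on their chromosomes were described too. The 5 measured genes on each side were taken in the order of GRCm38.p6, and Mucl2 is the last measured gene in its order, which left 45 neighbours. Their differences from wild type ran between -0.53 and 0.83 in Mdr2-KO/IL6-KO (median -0.05) and between -0.46 and 0.72 in Mdr2-KO (median -0.10). In Mdr2-KO/IL6-KO 4 of 45 rose and 1 fell, in Mdr2-KO 3 rose and 5 fell, and between the knockouts 4 were higher and 1 lower in Mdr2-KO/IL6-KO. With so few genes, these counts are near the shares of all genes given above.

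Them6, which lies 5 genes from Ly6d, had the largest difference of the neighbours, a rise of 0.83 in Mdr2-KO/IL6-KO (limma adjusted p = 1.3e-05) and 0.72 in Mdr2-KO (limma adjusted p = 4.77e-05). Slurp1, also near Ly6d, fell by 0.30 in Mdr2-KO (limma adjusted p = 0.0155) and was 0.23 higher in Mdr2-KO/IL6-KO than in Mdr2-KO (limma adjusted p = 0.0453), calls that single arrays removed. Glp1r, the receptor of glucagon-like peptide 1, lies 3 genes from Tff3 and fell by 0.53 in Mdr2-KO/IL6-KO (limma adjusted p = 0.00198) and 0.46 in Mdr2-KO (limma adjusted p = 0.00522). It was near background, at 5.42 and 5.49 beside 5.95 in wild type. Next to Cib3, Rab8a, a GTPase of membrane traffic, fell by 0.42 in Mdr2-KO (limma adjusted p = 0.00173), with 9.95 in Mdr2-KO/IL6-KO and 9.73 in Mdr2-KO beside 10.15 in wild type. Ap1m1, an adaptor subunit 2 genes from Cib3, rose by 0.36 in Mdr2-KO/IL6-KO (limma adjusted p = 0.00285) and 0.28 in Mdr2-KO (limma adjusted p = 0.012), and the Mdr2-KO call was lost without wild-type array 1 (0.0587).

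**Figure D5:**
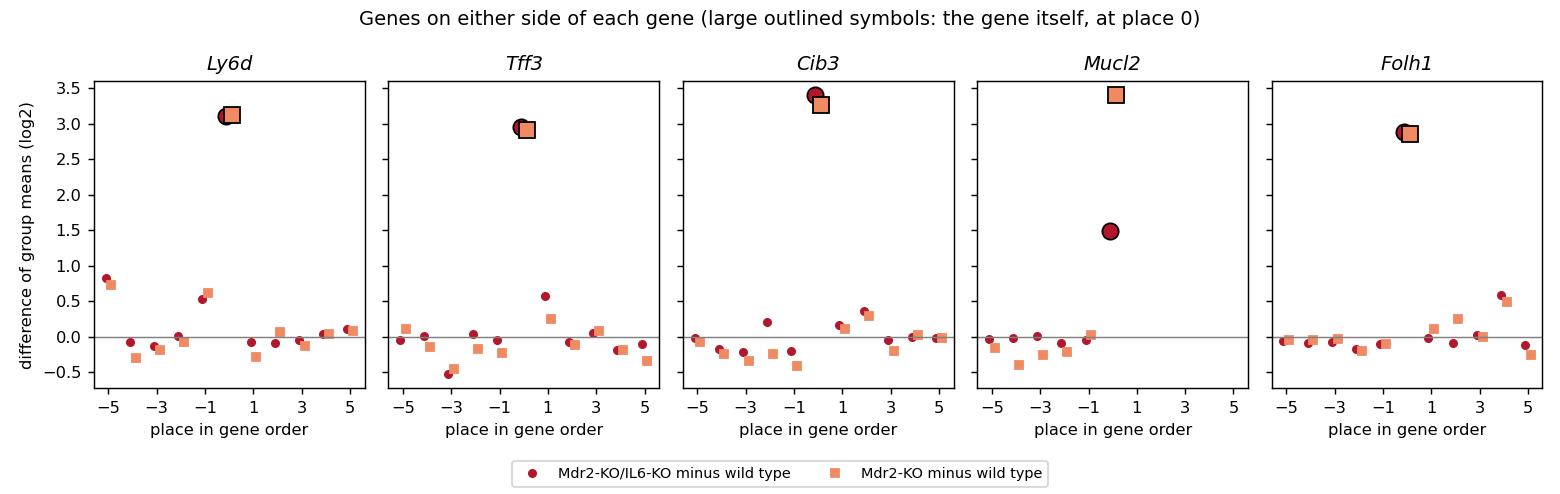
Difference of group means in log2 units (vertical) for up to 5 measured genes on each side of each gene, by place in the gene order (horizontal), as circles for Mdr2-KO/IL6-KO minus wild type and squares for Mdr2-KO minus wild type, with the gene itself outlined at place 0. The outlined symbols, of genes chosen for these differences, lie between 1.48 and 3.40, and the 45 neighbours lie between -0.53 and 0.83.

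Markers of other cells moved with the same contrasts. Against wild type, 11 of 17 bile duct and ductular cell markers rose and 1 fell in Mdr2-KO/IL6-KO, and 7 rose and none fell in Mdr2-KO, with median differences of 0.76 and 0.46. Their mean signal was 7.21 to 7.87 in Mdr2-KO/IL6-KO, 7.13 to 7.77 in Mdr2-KO and 6.64 to 6.94 in wild type, and leaving out single arrays gave between 10 and 12 rises and between 5 and 10. Tspan8, a tetraspanin of epithelia, rose by 2.18 in Mdr2-KO/IL6-KO (limma adjusted p = 0.000114) and by 2.30 in Mdr2-KO (limma adjusted p = 7.59e-05), and Cd24a, a lipid-anchored protein of ductular cells, rose by 1.88 (limma adjusted p = 0.000979) and 1.79 (limma adjusted p = 0.00154). Krt19, the keratin of bile duct cells, rose by 1.16 in Mdr2-KO/IL6-KO (limma adjusted p = 0.00285). None of the 17 markers was under background in all groups.

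Of 12 recruited macrophage markers 7 rose in Mdr2-KO/IL6-KO and 6 in Mdr2-KO, and of 12 stellate cell and fibroblast markers 6 and 5 rose, with no falls. The median differences were 0.46 and 0.31 for the macrophage markers, and 0.49 and 0.43 for the stellate cell markers. Without wild-type array 1 the stellate rises in Mdr2-KO/IL6-KO were 3, and without wild-type array 3 those in Mdr2-KO were 2. Among 10 markers of T, B and plasma cells 4 fell in each knockout, with medians of -0.40 and -0.44. In Mdr2-KO/IL6-KO this was 1 without wild-type array 2 or without Mdr2-KO/IL6-KO array 2, and in Mdr2-KO 1 without wild-type array 1. The list was mixed for plasma cells. Xbp1, at 10.82 beside 11.25 in wild type, was among the falls in Mdr2-KO. Jchain read higher, at 8.24 in Mdr2-KO/IL6-KO and 7.94 in Mdr2-KO beside 7.14 in wild type, without passing. Markers of gut and stomach epithelium, where Tff3 is best known, had no rise in either knockout. Of the 13, 2 were lower in both, and none was lower in Mdr2-KO/IL6-KO without wild-type array 3. The 2 were Lgr5, at 8.89 in wild type, and Lgals4, at 7.21. As 3 of the 13 lay under background in every group, the counts tell little of such epithelium. Pancreatic acinar markers had no rise either.

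Among 16 female-biased liver genes 13 fell and 1 rose in each knockout against wild type, with medians of -2.04 in Mdr2-KO/IL6-KO and -1.87 in Mdr2-KO. Their mean signal was 6.85 to 7.39 in Mdr2-KO/IL6-KO, 6.99 to 7.61 in Mdr2-KO and 8.63 to 9.51 in wild type. Of 19 male-biased genes 7 rose in each knockout, and 6 fell in Mdr2-KO/IL6-KO and 3 in Mdr2-KO. Without wild-type array 1 the 6 falls were 2. Between the knockouts 6 male-biased genes were lower in Mdr2-KO/IL6-KO, and without Mdr2-KO array 1 or array 2 only 1 was. Cyp2d9, a male-biased steroid hydroxylase and the third-nearest profile to Tff3, rose by 2.02 in Mdr2-KO/IL6-KO (limma adjusted p = 6.19e-08) and 1.97 in Mdr2-KO (limma adjusted p = 1.41e-07). The part of bile duct cells, macrophages, stellate cells and sex-biased expression in the levels of Ly6d, Tff3, Cib3, Mucl2 and Folh1 was not tested.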

How the data were processed

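RNA from 14 liver samples was measured on Affymetrix mouse gene arrays. The deposited table holds log2 values that the authors made with Partek and RMA, per the submitters' processing notes, with versions, genome build and filters not given in the sources used here. RMA equalises the distributions of arrays and compresses dim signals, so differences of dim genes are understated. Of 35557 probes, 21789 name 1 gene, 1621 name several and 12147 none, and 21698 were matched by gene identifier through GEO's platform annotation. The single-gene probe of highest mean stood for each of 19938 genes, with no filter on dim genes, of which 29.2% have a mean under 5.49. The background level was chosen after the data were seen. The number of arrays limits the precision.

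Groups came from the labels, which give no batch or scan date. Genes were fitted in limma 3.58.1 (R 4.3.3) with 3 group means over all 14 arrays and moderated tests, 2-sided, adjusted over all genes at 0.05. Python 3.11.15 and scipy 1.17.1 gave the exact permutation tests. The procedure was tested on simulated data. The 5 genes, the gene lists, the motifs and the rule for named genes were chosen with earlier results of these data known. Named were the 5 genes, up to 3 called genes per list and comparison (of which the text shows a part, mostly from the families), the 5 nearest profiles, and flanking genes called in 2 comparisons. Tff1, Tff2, Jchain and the genes high on Mdr2-KO array 1 were named after their values were seen. Alternatives were quantile normalization, centring on array medians, the mean of a gene's probes, leaving out the dimmest genes so that 13292 remained, trend and robust moderation, array quality weights, only the 2 groups compared, and each array left out in turn.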

Additional observations from a re-analysis of the deposited data

Results flagged for a closer look

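In 62 groups of 31 genes the highest and lowest arrays were set against the rest of their group by Dixon's criterion, and 13 stood out, where chance gives about 1 in 20. Mdr2-KO array 1 accounts for 9 of the 13: Mucl2 at 10.63, Scgb1b27 at 10.70, Bpifa2 at 8.90, Scgb2b27 at 8.29, Prol1 at 8.27, Car6 at 7.81, Pip at 7.42, Dcpp1 at 6.48 and Smr3a at 6.14, each the highest of the 5 arrays. The other 4 are the highest of the 6 Mdr2-KO/IL6-KO arrays, all on array 1, namely Ermp1 at 9.997, Ap1m1 at 8.68, Scgb1b27 at 7.39 and Scgb2b27 at 4.69. The Scgb2b27 value is under background. The gland genes, the list members Bpifa2, Prol1, Smr3a and Dcpp1 among them, were chosen for their value on Mdr2-KO array 1 or for likeness to Mucl2, so their flags are a description of that choice. None of the 13 is an array of Ly6d, Tff3, Cib3 or Folh1.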

How the results depend on the processing

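Against wild type, 168 of 170 alternative values of the 5 genes moved by less than the spread between arrays. The other 2 are Cib3 without wild-type array 2, and with single arrays left out Cib3 ran between 3.16 and 3.83 in Mdr2-KO/IL6-KO and between 3.03 and 3.69 in Mdr2-KO. Mdr2-KO/IL6-KO minus Mdr2-KO changed sign with array quality weights for Ly6d (0.12) and Folh1 (-0.11), and with single arrays left out it ran between -0.17 and 0.13 for Ly6d, between -0.18 and 0.24 for Folh1 and between -0.17 and 0.35 for Tff3. All of these lie inside the intervals of the differences. Mucl2 kept its direction in every alternative, a direction that its choice for a high Mdr2-KO signal favours. It passed the threshold with the dimmest genes left out (-1.92, limma adjusted p = 0.0454), with array quality weights (-2.07, limma adjusted p = 0.0346), and without wild-type array 3, Mdr2-KO array 5 or Mdr2-KO/IL6-KO array 1, and single arrays left out gave between -2.23 and -1.28. The number of genes called ran between 1635 and 2544 for Mdr2-KO/IL6-KO and between 2140 and 4507 for Mdr2-KO, each set against wild type, and between 754 and 2164 for the knockouts set against each other when single arrays were left out. Of the named genes outside the 5, 59 of 793 alternative values lost their call and none changed sign. No paired analysis was possible because the titles carry no replicate numbers shared by the groups. Folh1 in wild type, and Cib3 and Mucl2 on 2 of 3 wild-type arrays, are limited by background.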
